A study of Mus musculus with 8 samples.

Results

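The genes described are 10 rows of the gene count tables that encode enzymes and a receptor of the prostaglandin and leukotriene pathways: Ptgs1, Ptgs2, Ptges, Hpgds, Alox5, Alox5ap, Lta4h, Ltc4s, Ltb4r1 and Alox15. They were taken by name, and each was a row in all 8 tables, among 21755 gene rows that occurred in any of them. The study sequenced single immune cells, sorted for the leukocyte surface protein CD45, from full-thickness skin wounds on the back of male C57BL/6J mice. In the diabetic group, mice had received streptozotocin, a toxin of the insulin-producing beta cells, at 120 mg/kg at 4 weeks of age, and only those found hyperglycaemic 7 days later were wounded. The control group was non-diabetic mice of the same strain with the same wound. Wounds were taken 1, 3, 5 and 7 days after wounding, and those of 5 mice of a group and day were pooled into 1 library, so each group and day was measured 1 time (8 libraries). Pooling leaves no measure of the spread between mice.

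Prostaglandins and leukotrienes are short-lived lipid mediators that immune cells make from arachidonic acid. In the prostaglandin branch, a cyclooxygenase (the constitutive Ptgs1 or the inducible Ptgs2) makes prostaglandin H2, which Ptges turns into prostaglandin E2 and Hpgds into prostaglandin D2. In the leukotriene branch, 5-lipoxygenase (Alox5), helped by its membrane partner Alox5ap, makes leukotriene A4. Lta4h turns that into leukotriene B4, a neutrophil attractant that acts through the receptor Ltb4r1, whereas Ltc4s joins it to glutathione to give leukotriene C4, the first of the cysteinyl leukotrienes. Alox15 adds oxygen at other carbons of the chain, a step towards lipoxins and related mediators. In skin wounds these lipids are known for raising vessel permeability and pain and for drawing in and later clearing neutrophils.

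In the mouse annotation of build GRCm38 the prostaglandin genes are Ptgs1 at chr2:36230426-36252272, Ptgs2 at chr1:150100031-150108227, Ptges at chr2:30889471-30929863 and Hpgds at chr6:65117293-65144908. The leukotriene genes are Alox5 at chr6:116410077-116461178, Alox5ap at chr5:149264767-149288153, Lta4h at chr10:93453411-93484875, Ltc4s at chr11:50236461-50238616 and Ltb4r1 at chr14:55765962-55768494, and the last member is Alox15 at chr11:70344152-70352031. All are protein coding. Exons of Ptgs1, Alox5ap and Ltc4s overlap an annotated gene on the opposite strand (Gm43621, Gm19719 and Gm26542), and whether the authors' counting used strand is not given in the sources used here, so reads of those pairs could not be told apart. The long noncoding gene Ptgs2os2 lies on the minus strand, with its nearer edge (its 3′ end) 50816 bases beyond the end of Ptgs2, and does not overlap Ptgs2.

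Promoter sequences of 4 members are shown because their levels set cell classes or groups apart in the results that follow: Ptgs2 and Ptges, which were highest in monocyte-like cells, and Hpgds and Ltc4s, which were highest in macrophage-like clusters or in mast cell-like cells. Each runs from 250 bases before to 50 bases after the RefSeq start of the gene (build GRCm38.p6), 5′ to 3′ on the strand of the gene. The RefSeq table used here gave such a sequence for 8 of the 10 members, and none was used for Alox5ap and Alox15. Capitals mark the motifs that were searched on both strands: the E-box CACGTG, the palindromic C/EBP site TTGCGCAA, the PU.1 core AGGAAGT, the GC box GGGCGG and the TATA box TATAAA. The windows are chr1:150099781-150100080 on the plus strand, chr2:30903248-30903547 on the minus strand, chr6:65144681-65144980 on the minus strand and chr11:50238483-50238782 on the minus strand, in that order.

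Ptgs2: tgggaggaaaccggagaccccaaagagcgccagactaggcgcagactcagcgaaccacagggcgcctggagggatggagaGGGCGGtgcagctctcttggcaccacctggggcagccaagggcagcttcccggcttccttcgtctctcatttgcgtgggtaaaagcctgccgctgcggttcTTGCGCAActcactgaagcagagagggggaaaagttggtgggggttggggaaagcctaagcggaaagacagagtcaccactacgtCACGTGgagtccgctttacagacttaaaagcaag
Ptges: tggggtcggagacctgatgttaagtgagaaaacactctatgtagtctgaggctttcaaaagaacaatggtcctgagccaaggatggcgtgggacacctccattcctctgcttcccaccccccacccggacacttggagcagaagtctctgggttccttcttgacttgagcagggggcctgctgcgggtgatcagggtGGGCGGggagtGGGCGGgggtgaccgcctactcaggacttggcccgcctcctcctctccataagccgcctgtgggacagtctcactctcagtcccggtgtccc
Hpgds: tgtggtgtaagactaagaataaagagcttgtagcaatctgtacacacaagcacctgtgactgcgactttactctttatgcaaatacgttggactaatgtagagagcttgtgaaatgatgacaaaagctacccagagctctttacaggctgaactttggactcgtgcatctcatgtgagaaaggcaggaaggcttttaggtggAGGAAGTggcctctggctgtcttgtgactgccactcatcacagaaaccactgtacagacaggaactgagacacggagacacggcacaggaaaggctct
Ltc4s: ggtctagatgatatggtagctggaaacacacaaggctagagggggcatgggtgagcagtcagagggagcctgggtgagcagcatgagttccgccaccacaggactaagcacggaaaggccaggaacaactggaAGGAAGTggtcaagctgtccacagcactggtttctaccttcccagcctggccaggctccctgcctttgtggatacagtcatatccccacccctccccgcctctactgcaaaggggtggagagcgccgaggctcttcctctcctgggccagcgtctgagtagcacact

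The Ptgs2 promoter held the C/EBP palindrome, 69 bases before the start, and an E-box 17 bases after it. The first was found in 0.183% of 32851 mouse promoters of this length and the second in 7.15%. PU.1 is a transcription factor of myeloid cells, and its core was present in 4 of the 8 members (Ptgs1, Hpgds, Ltc4s and Ltb4r1) and in 9.35% of all promoters. The Ptges window held 2 GC boxes, 53 and 42 bases before the start, a motif found in 35.7% of all promoters and in 4 of the 8 members. No member window held TATAAA, which 13.6% of all promoters hold. The motifs were chosen after the sequences had been seen, and a match describes letters only, not binding.

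The libraries held 19236522 to 33842509 UMIs (unique molecular identifiers, each standing for a captured RNA molecule), and 35158 of 38959 barcodes passed the filter on genes and mitochondrial RNA. The control day 5 library lost 28.6% of its barcodes, against at most 10.8% in the others. Ptprc, the gene of CD45, had a UMI in 70.8% to 86.1% of cells by library, and 50 cells clustered as fibroblast-like despite the sort. Barcodes had been renamed to serial numbers, so those shared between libraries could not be counted, but no 2 libraries held an identical cell profile. Clusters were made with all pathway genes left out and named from markers: 13756 neutrophil-like, 5522 monocyte-like, 6089 macrophage-like, 2855 dendritic-like, 2456 T cell-like, 549 NK cell-like, 380 osteoclast-like and 149 mast cell-like cells. A further 3352 cells were led by Gm26917 and Malat1 and stayed unnamed. Levels are given as CPM, the UMIs of a gene divided by all UMIs of the same cells (all kept cells of a library, or those of a class) and multiplied by 1000000. Their intervals cover counting error only.

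Ptgs2, the inducible cyclooxygenase, was highest in monocyte-like cells and next highest in neutrophil-like cells. Over all libraries its level was 3774 (95% Poisson interval 3755 to 3793) CPM in monocyte-like and 2396 (95% Poisson interval 2381 to 2411) in neutrophil-like cells, against 783 in macrophage-like, 822 in dendritic-like and 338 in T cell-like cells. Monocyte-like cells held 47.0% of all Ptgs2 UMIs and neutrophil-like cells 30.6%. For thinned shares, cells were reduced to 1000 UMIs each, and cells with fewer (0.537% to 14.4% of a library) were left out. Unthinned shares cover all cells. A Ptgs2 UMI was found in 70.8% of thinned monocyte-like, 67.8% of neutrophil-like, 35.4% of macrophage-like and 20.4% of T cell-like cells (unthinned 89.3%, 83.1%, 77.6% and 53.7%, at median depths of 7398, 2476, 8431 and 3928 UMIs). T cell-like cells are given for reference, since T cells carry little of this enzyme. NK cell-like (190 CPM) and osteoclast-like cells (222) stood lower still, and free RNA itself was not measured. By library, monocyte-like cells were the highest class in 7 of 8, the exception being control day 3, where neutrophil-like cells were.

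**Figure D1:**
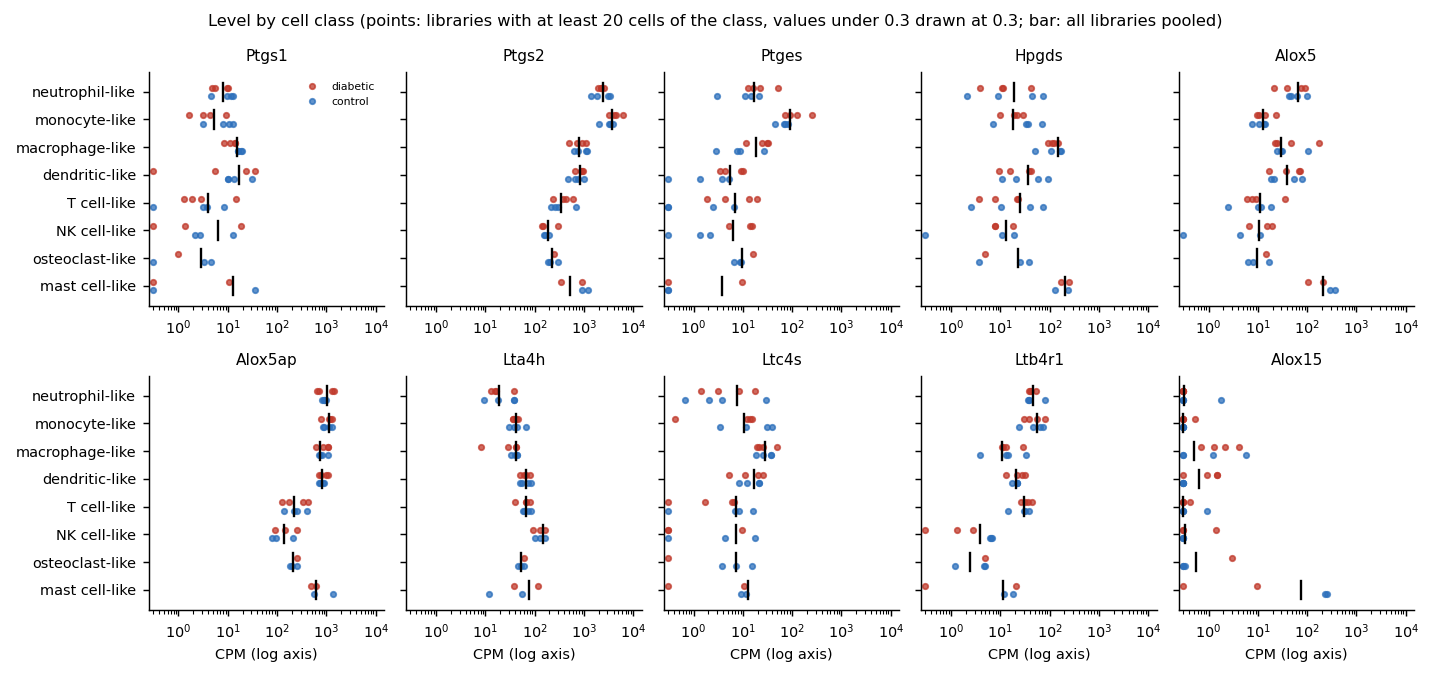
CPM (log axis) of each of the 10 members by cell class, with a point for every library that held at least 20 cells of the class (diabetic in red, control in blue, values under 0.3 drawn at 0.3) and a black bar for all libraries pooled. Ptgs2 and Ptges stood highest in monocyte-like cells, Hpgds in macrophage-like and mast cell-like cells, Lta4h in NK cell-like cells and Alox15 in mast cell-like cells.

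Within a class the Ptgs2 level differed by cluster. The monocyte-like cluster led by Ppbp and Serpinb2 (1341 cells) stood at 6578 CPM, the interferon-stimulated one led by Ifit2 and Rsad2 at 3762 and the one led by Vcan, Chil3 and Plac8 at 2419. Among neutrophil-like clusters, the one led by Il23a, Il1a and Tnf was highest at 3235 and the granule-rich one led by Ngp and Retnlg lowest at 1717. The macrophage-like cluster led by Retnla and Lyve1, markers of resident macrophages, held 353, below the 778 of the Igf1 and Gdf15 cluster and the 939 of the Gpnmb cluster.

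Across libraries, Ptgs2 in all cells measured 3012, 1945, 2072 and 1531 in diabetic wounds on days 1, 3, 5 and 7 and 3211, 1649, 772 and 717 in control wounds. The diabetic library was lower on day 1 and higher on days 3, 5 and 7, and the groups lay furthest apart on days 5 and 7. In monocyte-like cells Ptgs2 measured 4376, 3269, 4035 and 6221 in diabetic wounds on days 1, 3, 5 and 7 and 3816, 2008, 3312 and 3255 in control wounds, so the diabetic library was the higher on each of the 4 days. In neutrophil-like cells it measured 1971, 2222, 2542 and 2245 in diabetic wounds on days 1, 3, 5 and 7 and 3044, 3371, 1814 and 1377 in control wounds, lower in the diabetic library on days 1 and 3 and higher on days 5 and 7.

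Ptgs1, the constitutive cyclooxygenase, was sparse, with 1910 UMIs in all. Summed over libraries it was highest among the immune classes in dendritic-like cells (17.2 (95% Poisson interval 15.5 to 19.1) CPM) and macrophage-like cells (15.4 (95% Poisson interval 14.3 to 16.5)), whose intervals overlapped. By library the median was lower in dendritic-like (11.8, range 0 to 36.4) than in macrophage-like cells (14.97, range 8.34 to 19.8). Within dendritic-like cells it lay in the Cd209a cluster (21.6) and hardly in the Fscn1 and Ccl22 cluster (0.453). In all cells Ptgs1 measured 3.15, 13.2, 5.13 and 12.8 in diabetic wounds on days 1, 3, 5 and 7 and 4.62, 12.0, 13.1 and 12.9 in control wounds. Day 1 was low in both groups, and the diabetic day 5 library was the other low value.

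Ptges, the terminal synthase of prostaglandin E2, was concentrated in monocyte-like cells, which held 63.6% of its UMIs. The level over all libraries was 89.6 (95% Poisson interval 86.7 to 92.6) CPM there, 18.2 in macrophage-like, 16.6 in neutrophil-like and 6.79 in T cell-like cells. Ptges was left out of the clustering and was still among the 10 leading genes of the Ppbp and Serpinb2 cluster, the same cluster in which Ptgs2 was highest. Its level there was 239, against 81.0 in the interferon-stimulated and 19.2 in the Vcan and Chil3 monocyte-like cluster. The highest neutrophil-like level was 39.7, in the Il23a, Il1a and Tnf cluster. Of 267 monocyte-like cells with a Ptges UMI after thinning, 86.5% also had a Ptgs2 UMI, against 69.9% of the other 4588. In neutrophil-like cells the same shares were 64.0% and 67.8%. Thinned cells with a Ptges UMI made up 5.50% of monocyte-like and 0.691% of T cell-like cells (unthinned 13.6% and 2.57%).

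**Figure D2:**
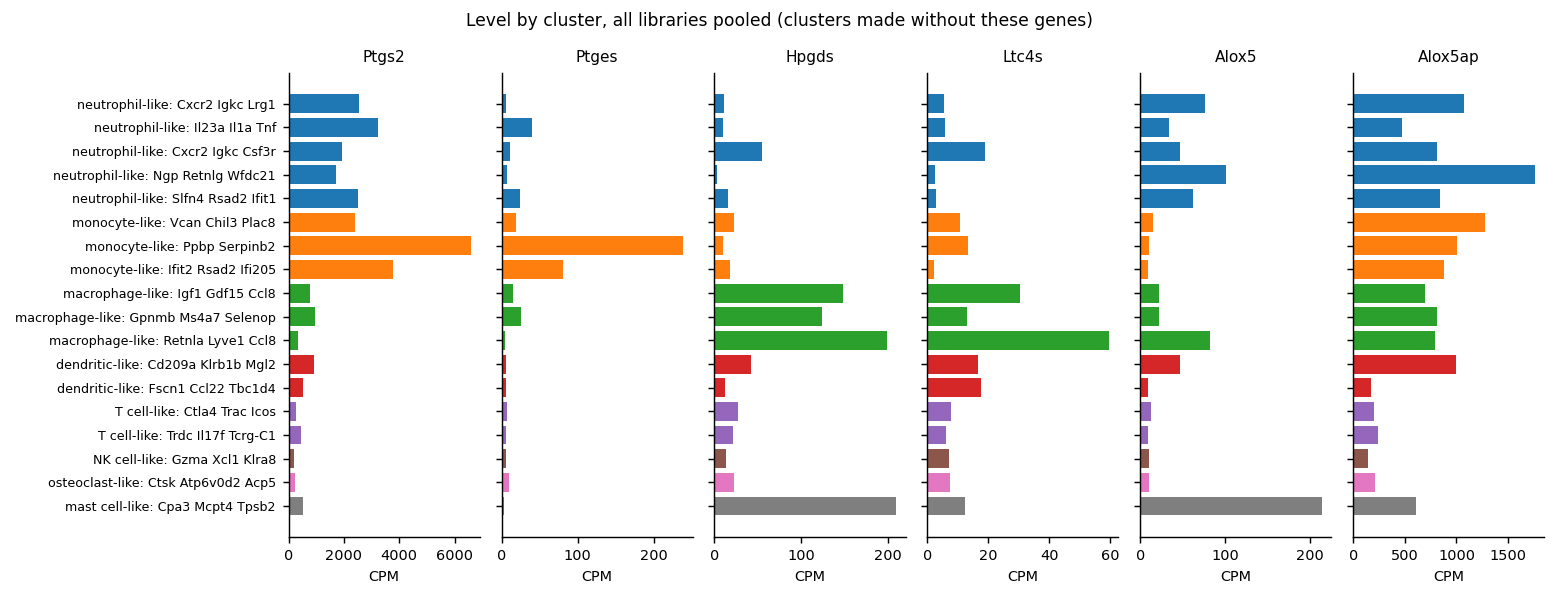
CPM of 6 members by cluster with all libraries pooled, clusters being labelled by class and up to 3 of their leading genes and coloured by class. The bars for Ptgs2 (6578) and Ptges (239) are longest in the Ppbp and Serpinb2 monocyte-like cluster, those for Ltc4s (59.8) in the Retnla and Lyve1 macrophage-like cluster, and the one for Alox5ap (1765) in the Ngp and Retnlg neutrophil-like cluster.

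Hpgds, the synthase of prostaglandin D2 in immune cells, showed the opposite distribution. Macrophage-like cells held 68.1% of its UMIs, at 145 (95% Poisson interval 142 to 148) CPM, and the few mast cell-like cells stood higher still, at 209 (95% Poisson interval 179 to 244). Within macrophage-like cells the Retnla and Lyve1 cluster was highest (198), followed by the Igf1 and Gdf15 cluster (148) and the Gpnmb cluster (124). The level was 24.9 in T cell-like cells and lower, 18.7 and 18.2, in neutrophil-like and monocyte-like cells, but the median over libraries was 16.2 in T cell-like, 11.2 in neutrophil-like and 25.4 in monocyte-like cells, so these 3 classes had no fixed order. On day 7 it was 42.2 and 73.4 in diabetic and control neutrophil-like cells, against 22.1 and 40.4 in T cell-like cells. Thinned shares of cells with a Hpgds UMI were 11.7% in macrophage-like, 1.94% in T cell-like and 0.798% in neutrophil-like cells (unthinned 43.8%, 7.25% and 2.62%).

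In all cells Hpgds measured 10.1, 33.4, 22.0 and 60.4 in diabetic wounds on days 1, 3, 5 and 7 and 6.91, 40.8, 114 and 123 in control wounds. Control wounds on days 5 and 7 stood above every diabetic library. In macrophage-like cells the values were 150.2, 90.7, 122 and 111 in diabetic wounds on days 1, 3, 5 and 7 and 51.0, 108, 159 and 169 in control wounds, and there the groups overlapped.

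Alox5, the 5-lipoxygenase, was found mainly in neutrophil-like cells, which held 43.3% of its UMIs at 64.3 (95% Poisson interval 61.9 to 66.8) CPM. Its level per class was highest in mast cell-like cells (214 (95% Poisson interval 184 to 249.04)), and monocyte-like cells (12.9) were near T cell-like cells (11.02). By library, neutrophil-like cells were below macrophage-like cells in diabetic days 1 and 7 and control day 1. They were below dendritic-like cells in control days 1 and 5 and diabetic day 7. By cluster, the granule-rich Ngp and Retnlg neutrophil-like cells stood at 101, the Retnla and Lyve1 macrophage-like cells at 81.9 and the Il23a, Il1a and Tnf neutrophil-like cells at 34.3. The last cluster had the highest Ptgs2 and the lowest Alox5 of the 5 neutrophil-like clusters, and the granule-rich cluster the lowest Ptgs2 and the highest Alox5. In all cells Alox5 measured 46.8, 49.1, 21.9 and 23.2 in diabetic wounds on days 1, 3, 5 and 7 and 35.1, 39.4, 25.3 and 26.0 in control wounds, higher on days 1 and 3 than on days 5 and 7 in both groups.

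Alox5ap, the partner protein of Alox5, was spread over the myeloid classes. It stood at 1154 CPM in monocyte-like, 1006 in neutrophil-like, 824 in dendritic-like and 753 in macrophage-like cells, against 215 in T cell-like cells. By library the order of the 4 myeloid classes changed, neutrophil-like cells being above monocyte-like cells in diabetic days 1 and 3 alone. The neutrophil-like clusters spanned 468 (Il23a, Il1a and Tnf) to 1765 (Ngp and Retnlg). Dendritic-like cells divided as for Ptgs1, with 993 in the Cd209a cluster and 173 in the Fscn1 and Ccl22 cluster, whose leading genes mark mature migratory cells. Thinned shares with an Alox5ap UMI were 64.3%, 50.8%, 50.2% and 14.9% of monocyte-like, neutrophil-like, macrophage-like and T cell-like cells (unthinned 89.2%, 71.3%, 88.1% and 44.5%). In all cells Alox5ap measured 1185, 1151, 738 and 574 in diabetic wounds on days 1, 3, 5 and 7 and 991, 910.2, 629 and 657 in control wounds, again higher on days 1 and 3 in both groups.

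Lta4h, the leukotriene A4 hydrolase, was highest outside the myeloid classes. NK cell-like cells stood at 146 (95% Poisson interval 133 to 160.4) CPM, and thinned cells with a UMI made up 12.1% of them (unthinned 41.0%). Mast cell-like (77.3 (95% Poisson interval 59.3 to 99.1)), T cell-like (67.6 (95% Poisson interval 63.0 to 72.4)) and dendritic-like cells (65.4 (95% Poisson interval 62.0 to 68.9)) followed and did not differ beyond their intervals, and neutrophil-like cells were lowest (19.3 (95% Poisson interval 17.9 to 20.6)). In the 6 libraries with at least 20 NK cell-like cells, the level ran from 91.8 to 166, above the 9.29 to 37.7 of neutrophil-like cells in 8 libraries. In all cells Lta4h measured 36.2, 37.3, 46.0 and 51.7 in diabetic wounds on days 1, 3, 5 and 7 and 30.6, 45.4, 48.0 and 50.9 in control wounds, so the highest library was less than 2-fold above the lowest.

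Ltc4s, the leukotriene C4 synthase, followed Hpgds in its macrophage-like distribution. Macrophage-like cells held 51.2% of its 2824 UMIs, at 27.6 (95% Poisson interval 26.2 to 29.1) CPM. By library they were the highest class in 4 of 8, monocyte-like or dendritic-like cells being highest in control days 3, 5 and 7 and diabetic day 3. The Retnla and Lyve1 cluster stood at 59.8, against 30.4 in the Igf1 and Gdf15 cluster and 13.1 in the Gpnmb cluster. Mast cell-like cells, high in Alox5 and Hpgds, stood at 12.5 (95% Poisson interval 5.98 to 22.9) for Ltc4s, on 10 UMIs. That interval lay below the macrophage-like one and overlapped that of T cell-like cells (7.21 (95% Poisson interval 5.77 to 8.89)). In all cells Ltc4s measured 1.73, 14.7, 8.16 and 18.3 in diabetic wounds on days 1, 3, 5 and 7 and 3.24, 15.8, 14.8 and 31.7 in control wounds.

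Ltb4r1, the high-affinity receptor of leukotriene B4, was found mainly in monocyte-like and neutrophil-like cells. Over all libraries it stood at 56.3 (95% Poisson interval 54.0 to 58.6) CPM in monocyte-like and 45.9 (95% Poisson interval 43.9 to 48.0) in neutrophil-like cells, and lower in macrophage-like cells (10.8). The order of the first 2 changed with the day, monocyte-like cells being the higher on days 1 and 7 in both groups and neutrophil-like cells on days 3 and 5 in both groups. Among T cell-like cells, the cluster led by Trdc and Il17f, marks of gamma-delta T cells making interleukin 17, held 48.0, against 20.2 in the cluster led by Ctla4, Trac and Icos. In all cells Ltb4r1 measured 59.9, 28.5, 34.8 and 21.7 in diabetic wounds on days 1, 3, 5 and 7 and 54.4, 39.2, 7.00 and 20.1 in control wounds. The lowest library was control day 5.

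Alox15 was nearly absent apart from mast cell-like cells. Of its 133 UMIs, 59 came from the 149 mast cell-like cells, at 73.6 (95% Poisson interval 56.0 to 94.9) CPM, whereas macrophage-like cells stood at 0.516 (95% Poisson interval 0.34 to 0.751) and monocyte-like cells held 2 UMIs. By library, mast cell-like cells held 21 Alox15 UMIs in control day 1, 25 in control day 3, 12 in diabetic day 5, 1 in diabetic day 1 and 0 in the other 4 libraries, from 10 to 25 mast cell-like cells each. The 0 values allow up to 17.8 to 45.3 CPM at 3 UMIs a library. In mast cell-like cells Alox15 was thus high in only 3 of the 8 libraries. In all cells the diabetic day 7 library, with 22 UMIs and none from mast cell-like cells (1.02 CPM), was close to the 0.979 of diabetic day 5. Beside this, Cpa3, a carboxypeptidase that defines mast cells, stood at 18909 CPM in mast cell-like cells and at most 32.1 in any other class.

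**Figure D3:**
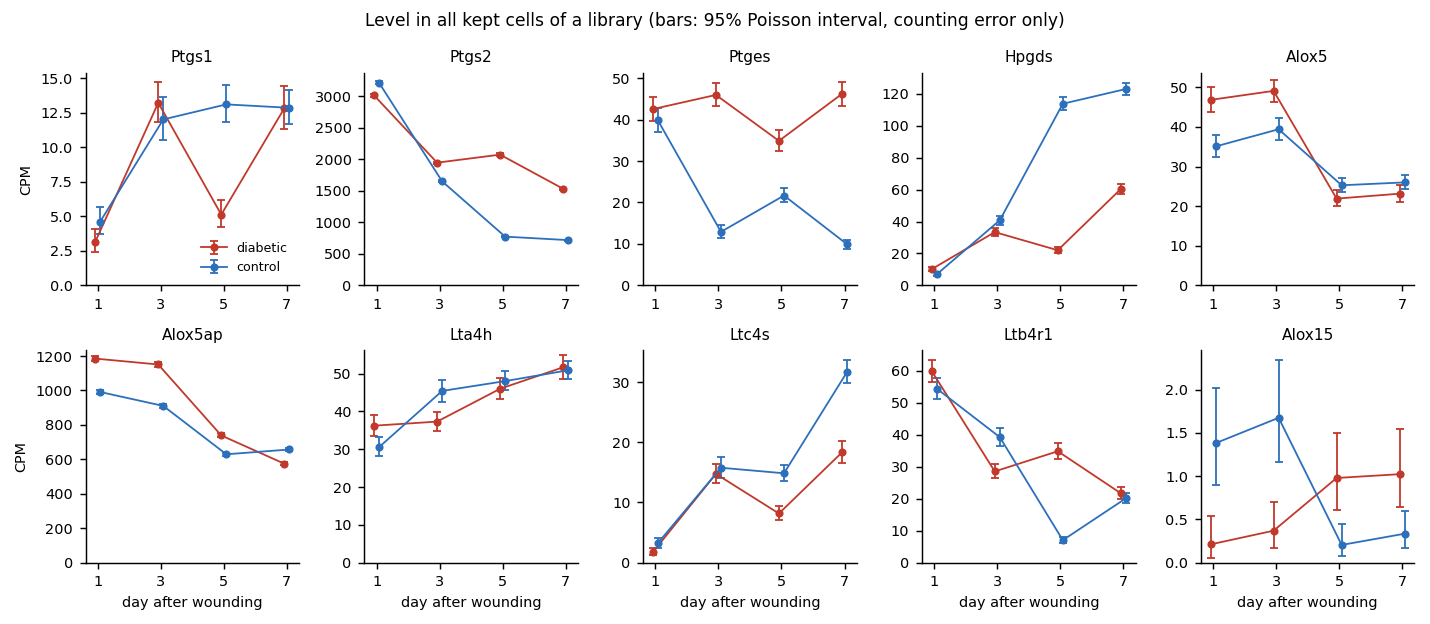
CPM of each member in all kept cells of a library against day after wounding, diabetic in red and control in blue, with 95% Poisson intervals as bars. Ptgs2 and Ptges were higher in diabetic than control wounds on day 7 (1531 and 717, 46.2 and 9.92), and Hpgds was lower (60.4 and 123).

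Diabetic and control wounds were compared over the 4 days with edgeR's quasi-likelihood test, day being a block. With 1 library per group and day, the test measures the group difference against its variation between days. No member passed an adjusted p of 0.05 in all cells, where no gene at all of 13857 tested did (0% called, with 1518 genes at an unadjusted p under 0.05 and 83 called by DESeq2). No member passed in neutrophil-like (0.0186% of genes called), monocyte-like (0.0383%), macrophage-like (0.00931%) or dendritic-like cells (0.0101%) either. At an unadjusted p under 0.05 there were 2 members in all cells, 1 in neutrophil-like, 4 in monocyte-like, 1 in macrophage-like and 0 in dendritic-like cells. Among all genes tested, 989 of 10748, 874 of 10440, 811 of 10744 and 599 of 9946 had such a p in these 4 classes. DESeq2 called 1 member in neutrophil-like cells (Ptges, beside 55 of 5105 genes), 1 in monocyte-like cells (Ptgs2, beside 57 of 3273 genes) and 0 in each of the other fits.

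Ptges had the largest difference of the members in all cells and in neutrophil-like cells. In monocyte-like cells it measured 70.6, 124, 91.0 and 258 in diabetic wounds on days 1, 3, 5 and 7 and 70.1, 45.1, 82.2 and 70.9 in control wounds, higher in the diabetic library on 4 of 4 days, though on days 1 and 5 by less than the counting error. In neutrophil-like cells it measured 16.1, 12.8, 22.7 and 51.5 in diabetic wounds on days 1, 3, 5 and 7 and 11.1, 2.97, 21.0 and 14.7 in control wounds. In macrophage-like cells it measured 25.03, 11.7, 32.6 and 31.7 in diabetic wounds on days 1, 3, 5 and 7 and 2.83, 7.56, 27.0 and 8.71 in control wounds. The diabetic library was the higher on 4 of 4 days in each of these classes and in all cells, and on 3 of 4 days in dendritic-like cells. The difference was within counting error on day 5 in neutrophil-like cells, on days 3 and 5 in macrophage-like cells and on day 1 in all cells, and macrophage-like day 1 rested on 6 against 1 UMIs. The neutrophil-like cluster highest in Ptges (39.7), led by Il23a, Il1a and Tnf, differed in share between the groups. On days 1, 3, 5 and 7 it made up 22.1%, 22.1%, 34.6% and 22.9% of diabetic and 39.9%, 6.14%, 5% and 1.88% of control neutrophil-like cells.

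The fitted log2 difference of Ptges, diabetic over control, was 1.25 ± 0.36 (SE) in all cells (edgeR adjusted p = 0.451) and 1.24 ± 0.31 (SE) in neutrophil-like cells (edgeR adjusted p = 0.317). It was 0.85 ± 0.27 (SE) in monocyte-like cells (edgeR adjusted p = 0.401), 1.07 ± 0.31 (SE) in macrophage-like cells (edgeR adjusted p = 0.417) and 1.46 ± 0.77 (SE) in dendritic-like cells (edgeR adjusted p = 0.857). None passed the threshold in these fits. With no filter on low counts, edgeR called Ptges in neutrophil-like (edgeR adjusted p = 7.67e-04), monocyte-like (4.53e-05) and macrophage-like cells (0.00854), where it called 158 of 18059, 181 of 17620 and 149 of 19072 genes, and DESeq2 called it in neutrophil-like cells. With library totals in place of TMM the median log2 difference of all genes in neutrophil-like cells moved from -0.01 to -0.12, and Ptges there kept its sign. In T cell-like cells, given for reference, Ptges measured 1.86, 19.4, 4.27 and 13.1 in diabetic wounds on days 1, 3, 5 and 7 and 0, 0, 6.57 and 2.47 in control wounds. The T cell-like values were likewise higher in the diabetic library on 3 of 4 days, and the part of RNA from other cells in the class differences was not tested.

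Within the Ppbp and Serpinb2 monocyte-like cluster, Ptges measured 138, 393, 276 and 468 CPM in diabetic wounds on days 1, 3, 5 and 7 and 134, 452, 238 and 240.0 in control wounds. The groups overlapped there, the control being higher on day 3. This cluster made up 17.9%, 24.4%, 23.1% and 52.5% of diabetic and 34.4%, 7.09%, 33.6% and 35.0% of control monocyte-like cells on the same days, the control day 3, day 5 and day 7 values resting on 40, 37 and 21 cells. On day 3 the diabetic library thus had the larger share of the cluster at no higher Ptges level within it, and on day 7 it had both the larger share and the higher level.

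**Figure D4:**
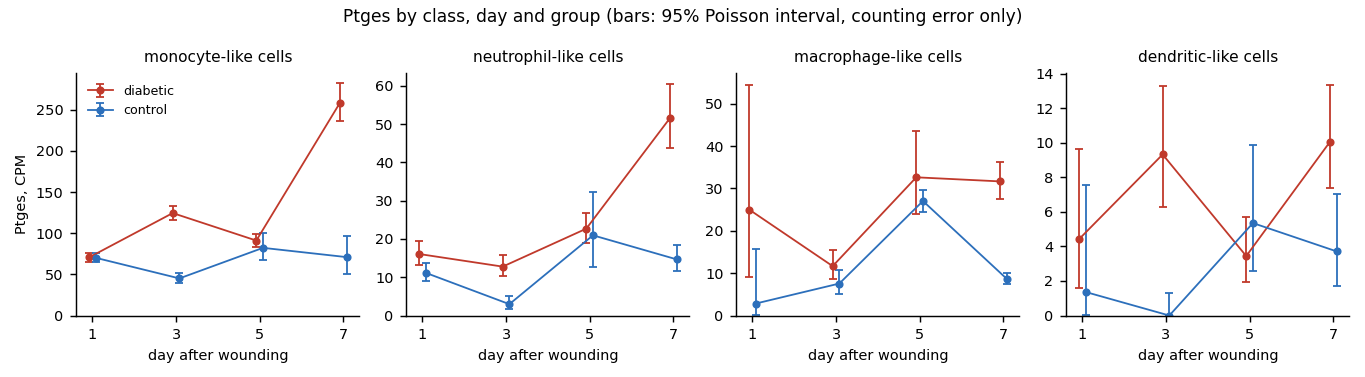
Ptges in CPM against day after wounding in 4 cell classes, diabetic in red and control in blue, with 95% Poisson intervals as bars. The diabetic point on day 7 is above the control point in each panel (258 and 70.9 in monocyte-like cells), but no class passed the test over days.

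Ptgs2 differed by 0.57 ± 0.15 (SE) on the log2 scale in monocyte-like cells (edgeR adjusted p = 0.309, higher in diabetic wounds on 4 of 4 days) and by 0.70 ± 0.31 (SE) in all cells (edgeR adjusted p = 0.452, 3 of 4 days). In macrophage-like cells Ptgs2 measured 505, 901, 709 and 1082 in diabetic wounds on days 1, 3, 5 and 7 and 1133, 1077, 744 and 623 in control wounds, lower in the diabetic library on days 1 and 3, within counting error on day 5 and higher on day 7. Within the Ppbp and Serpinb2 cluster its levels were 6359.6, 5905, 9342 and 9868 in diabetic and 5344, 5495, 6025 and 5627 in control wounds on days 1, 3, 5 and 7, again higher in the diabetic library on each day. Ltc4s lay the other way, at -0.61 ± 0.20 (SE) in all cells (edgeR adjusted p = 0.451, lower in diabetic wounds on 4 of 4 days) and -1.08 ± 0.35 (SE) in monocyte-like cells (edgeR adjusted p = 0.403). There it measured 0.417, 15.5, 12.2 and 14.2 in diabetic wounds on days 1, 3, 5 and 7 and 3.49, 30.6, 11.4 and 39.0 in control wounds, the diabetic library being lower on days 1, 3 and 7 and not on day 5, and day 1 resting on 4 against 33 UMIs. On day 3 the difference in all cells was within counting error. With 1 set of class shares for both libraries, the diabetic over control ratio of Ltc4s in all cells went from 0.535 to 1.16 on day 1 and from 0.549 to 0.885 on day 5, and was 0.578 and 0.574 on day 7. In macrophage-like cells, which carried 25.6% of those weights, its ratio was 1.36 on day 1, on 12 against 13 UMIs. It was 0.843 on day 3, 1.01 on day 5 and 0.667 on day 7, and the counting interval left out 1 on day 7 alone. On day 3 Ltc4s was higher in the diabetic library in dendritic-like (25.8 and 8.56 CPM) and neutrophil-like cells (8.42 and 3.82 CPM). It was lower there in dendritic-like cells on day 5 (11.2 and 21.4) and in neutrophil-like cells on day 7 (17.7 and 29.0). In both classes the counting intervals overlapped on the days not given, so the direction of Ltc4s differed between days. With no filter on low counts edgeR called Ptgs2 (edgeR adjusted p = 5.03e-04) and Ltc4s (0.0103) in monocyte-like cells, and DESeq2 called Ptgs2 there. Hpgds in all cells was at -0.77 ± 0.42 (SE) (edgeR adjusted p = 0.495). The log2 differences of Alox5, Alox5ap and Lta4h in all cells ran from 0.02 to 0.20. Whether the slope over days differed between the groups was tested with an interaction term in edgeR, and no member and no gene passed in any of the 5 fits (0% called). At an unadjusted p under 0.05 there were Alox15 in all cells (beside 240 of 13857 genes), Ptgs2 in neutrophil-like cells (303 of 10748) and Ptgs2, Hpgds and Alox15 in macrophage-like cells (225 of 10744). DESeq2 was not run for this term.

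On single days there was no replicate, so differences are between 2 libraries. A gene with at least 20 UMIs in both libraries together was counted as apart when its ratio in all cells was at least 2-fold. The same rule gave the shares of all genes. The 95% counting interval of each member so counted excluded 1, which was not part of the rule. On day 5, 3 members were higher (Ptgs2, Ltb4r1 and Alox15) and 2 lower (Hpgds and Ptgs1), when 12.2% and 18% of all genes were. On day 7, 3 were higher (Ptgs2, Ptges and Alox15, against 6.67% of genes) and 1 lower (Hpgds, against 4.86%). On day 3 Ptges was higher (4.38% of genes) and Alox15 lower (5.54%), and on day 1 Alox15 alone was lower (2.19%).

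Class makeup differed between these libraries, and in sums over all cells fewer cells of a type and less RNA per cell cannot be told apart. On day 5 the diabetic library held 1917 neutrophil-like, 618 monocyte-like and 178 macrophage-like cells and the control library 260, 110 and 1434. The diabetic over control ratio of Ptgs2 on day 5 was 2.68 as measured and 1.21 when the class levels of both libraries were weighted by 1 set of class shares. For Ltb4r1 on day 5 these ratios were 4.98 and 1.62, and for Hpgds 0.193 and 0.476. On day 7 the ratio of Ptgs2 went from 2.13 to 1.82, that of Ptges from 4.66 to 3.59 and that of Hpgds from 0.491 to 0.66. Using 1 set of shares for both libraries thus brought each of these ratios nearer to 1 and left Ptges on day 7 more than 3-fold apart. The ratio of Hpgds on day 1 moved away from 1, from 1.47 to 2.54. Macrophage-like cells carried 25.6% of the weight but as little as 1.26% of a library's UMIs. On day 1 they held 36 diabetic against 18 control Hpgds UMIs, from 71 and 80 cells. The weights were the mean UMI shares of 6 classes over the libraries, and left out NK cell-like, osteoclast-like, fibroblast-like and mast cell-like cells. Without mast cell-like cells, no weighted ratio is given for Alox15. Osteoclast-like cells, at 222 CPM of Ptgs2, held 5884442 of 29433064 UMIs in control day 5 and 227470 of 21452255 in diabetic day 5. The part of their omission in the weighted day 5 ratios was not tested.

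Within single classes, Ptges was more than 2-fold higher in the diabetic library on day 3 in monocyte-like cells, at a ratio of 2.76 (95% interval 2.37 to 3.23), and in neutrophil-like cells, at 4.30 (95% interval 2.43 to 8.19), when 5.13% and 7.71% of genes were. On day 7 its ratio was 3.64 (95% interval 2.63 to 5.16) in monocyte-like, 3.51 (95% interval 2.65 to 4.69) in neutrophil-like and 3.64 (95% interval 2.96 to 4.48) in macrophage-like cells, when 5.6%, 3.09% and 3.55% of genes were at least 2-fold higher. The Il23a, Il1a and Tnf cluster made up 22.1% of diabetic and 6.14% of control neutrophil-like cells on day 3, and 22.9% and 1.88% on day 7. The part of these shares in the neutrophil-like Ptges ratios was not tested. In dendritic-like cells on day 3, Alox5 measured 73.3 in the diabetic and 18.2 in the control library, and on day 5 17.0 and 54.1, so its direction differed between those days. Ptgs1 in the same cells did likewise, at 36.4 and 9.99 on day 3 and 5.51 and 31.0 on day 5. On day 7 both were again higher in the diabetic library, at 36.5 and 21.1 for Alox5 and 23.1 and 9.91 for Ptgs1. Day 1 lay the other way, at 0 and 13.6 for Ptgs1 (0 against 10 UMIs) and, within counting error, at 67.1 and 77.6 for Alox5. In that class 4 of 9 members tested were at least 2-fold higher on day 3, when 5.15% of genes were. Beside Alox5 and Ptgs1 these were Ltc4s (83 against 24 UMIs) and Ptges (30 against 0 UMIs). On day 5, 3 of 9 members were at least 2-fold lower, when 5.88% of genes were. The Cd209a cluster, which carries both genes, made up 88.2%, 79.0%, 76.3% and 80.7% of diabetic and 74.8%, 81.8%, 75% and 82.4% of control dendritic-like cells on days 1, 3, 5 and 7. The diabetic over control ratio of Hpgds on day 5 was 0.17 (95% interval 0.127 to 0.226) in dendritic-like, 0.27 (95% interval 0.201 to 0.363) in monocyte-like and 0.247 (95% interval 0.165 to 0.372) in neutrophil-like cells, when 5.88%, 6.03% and 29.5% of genes were at least 2-fold lower. In macrophage-like cells, which hold most Hpgds, it was 0.768 (95% interval 0.654 to 0.897). Macrophage marker RNA in neutrophil-like cells was likewise lower in the diabetic library on day 5 (values below), and its part in the Hpgds ratio was not tested.

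Changes over days were tested with day as a number beside the group, as log2 per day. In all cells, Alox5 (-0.23 ± 0.04 (SE) per day, edgeR adjusted p = 0.0247), Alox5ap (-0.23 ± 0.04 (SE), 0.0239) and Ptgs2 (-0.34 ± 0.07 (SE), 0.0279) fell and Hpgds rose (0.43 ± 0.10 (SE), 0.0361). These are 4 of 10 members, and 10.3% of all genes passed, 3.46% higher and 6.88% lower (461 and 917 genes). With library totals in place of TMM that split was 1900 higher and 483 lower, and Alox5 no longer passed (-0.15 per day). Without the day 1 libraries 0 members and 0 genes passed, and without the day 7 libraries 0 members and 1 gene did. Over the same days macrophage-like cells went from 71 to 921 in diabetic and from 80 to 2282 in control libraries, and monocyte-like cells from 1725 to 221 and from 1333 to 60.

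In neutrophil-like cells 7 of the 9 members tested passed, 4 lower and 3 higher with time, but 42.4% of all genes passed there (22.2% higher and 20.2% lower), so a large share of calls is not particular to the members. Alox5 fell by 0.40 ± 0.06 (SE) per day on the log2 scale (edgeR adjusted p = 4.27e-04), from 91.1, 73.9, 39.6 to 21.8 CPM in diabetic wounds, while control wounds read 62.1, 101, 47.1 and 42.3. Alox5ap (-0.27 per day), Ptgs2 (-0.25) and Ltb4r1 (-0.18) were called lower as well. Their edgeR adjusted p-values were 0.00105, 0.0171 and 0.0441. Alox5ap measured 1319, 1412, 649 and 717 in diabetic wounds on days 1, 3, 5 and 7 and 913, 987, 881 and 798 in control wounds, and Ltb4r1 41.5, 39.3, 52.1 and 38.5 in diabetic wounds on days 1, 3, 5 and 7 and 38.6, 80.2, 35.6 and 39.0 in control wounds. These 3 slopes are relative to the TMM scaling: in CPM Ptgs2 was no lower on day 7 than on day 1 in diabetic neutrophil-like cells, Ltb4r1 was near its day 1 level on day 7 in both groups, and with library totals in place of TMM none of the 3 passed (-0.11, -0.09 and -0.03 per day).

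The makeup of the neutrophil-like cells changed at the same time. The granule-rich Ngp and Retnlg cluster, highest in Alox5 and Alox5ap, made up 40.8%, 16.5%, 11.9% and 0.795% of diabetic and 28.8%, 2.92%, 2.31% and 0.188% of control neutrophil-like cells on days 1, 3, 5 and 7. The Cxcr2, Igkc and Csf3r cluster, the highest of the neutrophil-like clusters in Hpgds (54.8) and Ltc4s (18.9), made up 5.11%, 14.0%, 11.2% and 60.3% and 3.55%, 19.3%, 43.5% and 88.8%. Without the Ngp cluster the slopes were -0.33 for Alox5, -0.16 for Alox5ap and -0.29 for Ptgs2, each still past the threshold, and -0.17 for Ltb4r1, which was not. Within the Cxcr2 and Lrg1 cluster alone, Alox5 measured 47.2, 77.7, 56.8 and 28.2 in diabetic and 69.2, 113, 58.7 and 29.2 in control wounds, lowest on day 7 in both groups.

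Hpgds (0.52 per day), Ltc4s (0.48) and Lta4h (0.13) rose in neutrophil-like cells, with edgeR adjusted p-values of 3.23e-04, 0.00484 and 0.0485. The Lta4h call was lost in 9 of 17 alternatives. Over the 17 its slope ran from 0.08 to 0.28 and its adjusted p from 0.00201 to 0.555 over edgeR and DESeq2 fits. Hpgds measured 3.87, 11.5, 10.9 and 42.2 in diabetic wounds on days 1, 3, 5 and 7 and 2.12, 8.91, 44.0 and 73.4 in control wounds, and Ltc4s 1.44, 8.42, 3.12 and 17.7 in diabetic wounds on days 1, 3, 5 and 7 and 0.664, 3.82, 2.10 and 29.0 in control wounds. Macrophage-like cells held the largest share of Hpgds and Ltc4s UMIs, and macrophage marker RNA in the neutrophil-like cells moved with these members. The 12 macrophage markers, all detected in every library there and none at 0, summed to 558, 3229, 2479 and 10863 CPM in diabetic and 817, 2315, 8911 and 12037 in control neutrophil-like cells on days 1, 3, 5 and 7. In T cell-like cells the same sum ran from 1453 to 4822 in diabetic and from 1384 to 10964 in control libraries. The neutrophil markers in neutrophil-like cells went from 63732 on day 1 to 16336 on day 7 in diabetic libraries. On day 5, Hpgds (10.9 and 44.0) and the macrophage marker sum (2479 and 8911) were both lower in diabetic than in control neutrophil-like cells. The part of macrophage RNA in the rise of Hpgds and Ltc4s, or in this group difference, was not tested.

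**Figure D5:**
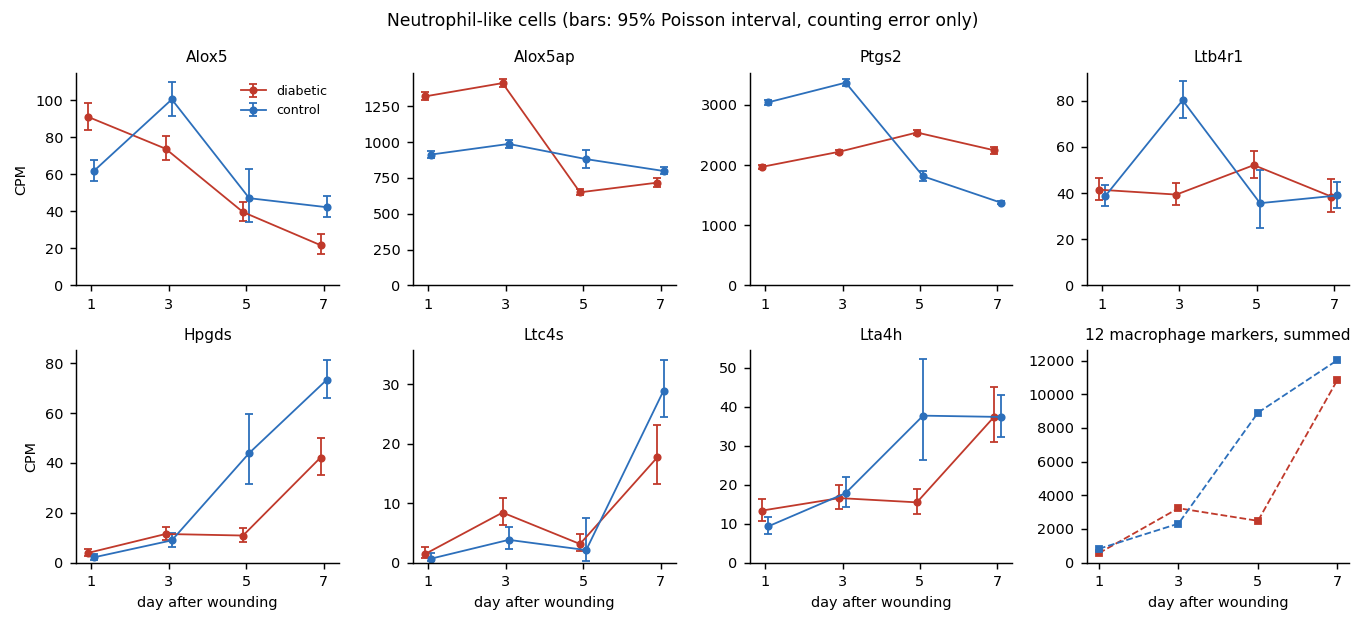
CPM in neutrophil-like cells against day after wounding for the 7 members that passed the test over days, and, in the last panel, the sum of 12 macrophage markers in the same cells (diabetic in red, control in blue, bars 95% Poisson intervals). Alox5 and Alox5ap go down and Hpgds and Ltc4s go up, and the macrophage marker sum goes up from 558 to 10863 in diabetic libraries.

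The count in neutrophil-like cells depended on the first and last day and on how cells were named. It was 4 without the day 1 libraries, 0 without the day 7 libraries and 5 without control day 5, where Lta4h and Ltb4r1 no longer passed. Of all genes, 1262 of 10426, 126 of 10131 and 4052 of 10679 passed in those fits. With library totals in place of TMM the median slope of all genes moved from 0.02 to 0.17 log2 per day, and the split of called genes from 2248 higher and 2042 lower to 4857 higher and 498 lower. Alox5 then stood at -0.25, Hpgds at 0.68, Ltc4s at 0.63 and Lta4h at 0.28 per day, and all 4 still passed.

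In macrophage-like cells Alox5 was the only member that passed, falling by 0.35 ± 0.07 (SE) per day (edgeR adjusted p = 0.0387; 0.595% of genes called). Its levels there were 171, 46.4, 22.7 and 24.3 in diabetic wounds on days 1, 3, 5 and 7 and 102, 31.0, 30.2 and 25.1 in control wounds, highest on day 1, when the class held 71 and 80 cells, and without the day 1 libraries it did not pass. Within the Retnla and Lyve1 cluster, which went from 47.9% to 14.0% of diabetic and from 38.8% to 7.67% of control macrophage-like cells, Alox5 measured 232, 111, 84.9 and 71.8 in diabetic and 194, 40.2, 81.2 and 55.1 in control wounds. Hpgds in the same cluster measured 186, 139, 244 and 198 and 97.0, 169, 225 and 215, and Ltc4s 63.8, 36.4, 74.3 and 52.0 and 89.5, 45.1, 63.7 and 77.9. No member passed in monocyte-like (0.74% of genes called) or dendritic-like cells (0.315%), where 4 members each had an unadjusted edgeR p under 0.05, beside 1373 of 10001 and 1104 of 9532 genes. DESeq2 called 1 and 0 members in these classes, beside 324 of 11471 and 178 of 11221 genes.

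Other genes of the pathways were read from a list of 68, of which 65 had a UMI. Against control wounds, 1 of them passed in any of the 5 fits, Fpr2, a receptor of lipoxin A4 and formylated peptides, in monocyte-like cells (log2 difference 1.06 ± 0.15 (SE), edgeR adjusted p = 0.0469, 1 of 38 list genes tested; the value ran from 0.90 to 1.24 over the alternatives and passed in 9 of 17). Fpr2 measured 284, 151, 108 and 135 in diabetic and 185, 67.5, 46.4 and 56.8 in control monocyte-like cells, higher in diabetic wounds on each day. Its median over libraries was higher in neutrophil-like (1000 CPM) than in monocyte-like cells (122). The diabetic library was also the higher on each day in neutrophil-like and macrophage-like cells, and in dendritic-like cells on all days but day 1. The part of neutrophil RNA in the monocyte-like difference was not tested. Over days in all cells, 8 of 50 list genes passed, 2 higher (Ephx1 and Hpgd) and 6 lower (Cotl1, Fpr1, Fpr2, Ggt1, Lpcat2 and Ptger2), where 3.46% and 6.88% of all genes passed, beside a median of 0.04 log2 per day for the list and 0.02 for all genes.

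In neutrophil-like cells 23 of 38 list genes passed over days, 14 higher and 9 lower, where 42.4% of all genes did. The higher were Akr1b3, Cbr1, Cmklr1, Cysltr1, Ephx1, Fam213b, Hpgd, Mgst3, Pla2g12a, Pla2g15, Ptges3, Ptgr1, Ptgr2 and Tbxas1 and the lower Cotl1, Cyp4f18, Fpr1, Fpr2, Ggt1, Ggt5, Lpcat2, Mgll and Ptger2. Ggt1, which cleaves leukotriene C4, changed by -1.06 log2 per day and Cyp4f18, a neutrophil enzyme that inactivates leukotriene B4, by -0.35. Ggt1 was sparse, with 320 UMIs over all cells, and highest in diabetic day 1. In neutrophil-like cells it measured 26.1, 3.77, 0.822 and 0 CPM in diabetic and 5.57, 1.70, 1.05 and 0.783 in control wounds. The formyl peptide receptor Fpr1 (-0.49) and Fpr2 (-0.40) fell as well. Of the breakdown enzymes, Hpgd, the prostaglandin dehydrogenase, rose by 0.85 and Ptgr1, a prostaglandin reductase, by 0.50. Adjusted p-values of these 6 genes in edgeR ran from 2.02e-04 to 0.00493. The 3 members that rose had a larger median level over libraries in macrophage-like than in neutrophil-like cells and the 4 called lower a smaller one. Likewise, all 14 higher list genes had the larger median in macrophage-like cells (18.2 and 1.305 CPM for Hpgd, 35.3 and 5.41 for Ptgr1), and 8 of the 9 lower ones, Cotl1 being the exception, had the smaller median there. Of the 15 that did not pass, 13 were higher in macrophage-like cells. The macrophage marker sum in neutrophil-like cells went up over the same days, and its part in these slopes was not tested. Cmklr1, a chemerin receptor that also responds to resolvin E1, was the only list gene to pass over days in dendritic-like cells (0.37 per day, edgeR adjusted p = 0.0436; the slope ran from 0.18 to 0.42 over the alternatives and passed in 9 of 16), and none did in monocyte-like or macrophage-like cells. The list genes with the most UMIs were Anxa1, an inhibitor of phospholipase A2 and ligand of Fpr2, Pla2g7, which degrades platelet-activating factor, Fpr1, Fpr2 and Cotl1, an actin-binding partner of Alox5. In all cells Anxa1 measured 399.7, 469, 284 and 348 CPM in diabetic wounds and 321, 329, 659 and 457 in control wounds, and Pla2g7 319, 313, 263 and 262 and 258, 254, 515 and 395, both highest in control day 5.

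The genes whose levels were most like each member, Alox15 apart as too sparse, were read over 60 sums of a class in a library, among 5886 genes, as Pearson's r of log levels. The points share libraries and class makeup, so r is a description. Ptgs2 was nearest to Cflar (0.90) and Il1b (0.89), the gene of interleukin 1 beta. Ptges was nearest to the collagenase Mmp13 (0.85) and to Pdpn (0.78), itself on the monocyte marker list, Hpgds to Itga9 (0.86) and Pmp22 (0.81), and Ltc4s to Fcgrt (0.79) and Abca9 (0.76). For Alox5ap the nearest were Pirb and Evi2a (0.90 each), for Alox5 Mctp1 (0.74) and Egr3 (0.73), for Lta4h Ppp1r8 (0.85) and Cdc5l (0.84), and for Ltb4r1 Slc15a3 (0.77) and Slfn1 (0.76). Ptgs1 had the loosest match (Mgl2, a dendritic marker used here, 0.63, and Acox3, 0.60).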

How the data were processed

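Single CD45+ cells were captured on the BD Rhapsody system per the study's methods, whereas the series record names 10X Genomics. The authors trimmed reads with fastp 0.20.1 (named in the submitters' processing notes), extracted barcodes with UMI-tools and aligned with STAR to an Ensembl mouse annotation, while the processing notes name build mm9. The deposited values are raw UMI counts per gene and cell, not normalized, in 1 table per library. The cell total stated in the study is smaller than the number of barcodes deposited and than the number its stated filter left here, while the cells in its cluster tables sum to more than that stated total.

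A cell was kept when more than 200 genes were seen in it and mitochondrial RNA made up less than 20% of its UMIs, and mitochondrial genes were then dropped. Cells were clustered with scanpy 1.11.5 (2000 variable genes without pathway genes, 10 principal components, 30 neighbours, Leiden at resolution 0.8) and named from marker lists, as "-like" where a list stood above its level in the other cells and at least 3 of its markers were detected. Clusters led by Gm26917 and Malat1, or shallow ones with no own marker among the 10 leading genes, stayed unnamed. Doublets were kept in the main analysis: Scrublet called 68 of 35158 cells and was taken as not having worked. Counts were summed per library and class and tested with edgeR 4.0.16 in R 4.3.3 (TMM, filterByExpr, quasi-likelihood F test, Benjamini-Hochberg over all genes tested): group with day as a block, and day as a number with group. DESeq2 1.42.0 was an alternative. The fits were tested on simulated data. Shares of cells with a UMI were taken after thinning to 1000 UMIs per cell, with cells below that depth left out. Poisson and Clopper-Pearson intervals cover 95% and counting error only.

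Genes named were the members always, other pathway genes past the threshold or among the 5 with the most UMIs, and the 2 genes most like each member. Members, marker lists and gene lists were chosen with earlier results of these data known. Alternatives were DESeq2, no TMM, no count filter, other day terms, leaving out each day, other clusterings, single-cell naming, 500 genes per cell, no mitochondrial filter, and Scrublet calls removed. Chosen after seeing the data were the class of the higher median for genes tested over days, removal of the highest 5% of doublet scores, leaving out control day 5 or the Ngp cluster, equal class weights and the group by day interaction. No per-sample column was left unused.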

Additional observations from a re-analysis of the deposited data

How the results depend on the processing

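Group comparisons paired the diabetic and control libraries by day through the day block, and without it 0 members passed in each of the 5 fits, as with it. No replicate block was fitted because each group and day held 1 library. Counts of members past an adjusted p of 0.05 were as follows where an alternative moved them. DESeq2 called 7 members over days in all cells (4 with edgeR), 1 in monocyte-like (0) and 2 in macrophage-like cells (1), beside 2776 of 14950, 324 of 11471 and 132 of 11677 genes, and against control 1 in neutrophil-like and 1 in monocyte-like cells (0 in each). With no filter on low counts, edgeR called against control 1 in neutrophil-like, 3 in monocyte-like and 1 in macrophage-like cells, beside 158 of 18059, 181 of 17620 and 149 of 19072 genes. Over days it called 1 in monocyte-like and 2 in dendritic-like cells, beside 405 of 17620 and 333 of 17237 genes. Each of these member counts was 0 in the main analysis. Naming cells singly left 3 of 7 over days in neutrophil-like cells, beside 809 of 8458 genes (4290 of 10113 in the main analysis), and Ltb4r1 there turned to 0.025 log2 per day. Resolution 0.4 left 0 of 1 in macrophage-like cells, beside 48 of 10803 genes (61 of 10252 in the main analysis). The causes were not tested. Leaving out each day, or control day 5, gave 0 to 5 members over days in all cells, 0 to 7 in neutrophil-like, 0 to 1 in monocyte-like and 0 to 1 in macrophage-like cells. Counts of all genes called in the same fits ran from 0 to 1682, 126 to 4843, 5 to 310 and 24 to 105.

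Directions held elsewhere: of 176 re-fitted group differences of named genes none changed sign, 7 came past the threshold and 8, all of Fpr2, fell short of it. Of 301 re-fitted slopes, 50 no longer passed and 1 changed sign. The Ptges difference ran from 0.95 to 1.601 log2 in neutrophil-like and 0.57 to 1.17 in monocyte-like cells, with adjusted p-values of 7.67e-04 to 0.999 and 4.53e-05 to 0.916 over edgeR and DESeq2 fits. Counts of all genes called against control spanned 0 to 83 in all cells, 0 to 158 in neutrophil-like, 0 to 181 in monocyte-like, 0 to 149 in macrophage-like and 0 to 120 in dendritic-like cells (0, 2, 4, 1 and 1 in the main analysis). Over days they spanned 0 to 2776, 126 to 5355, 5 to 405, 24 to 293 and 0 to 333 (1378, 4290, 74, 61 and 30). Depth limits Alox15 most, with 133 UMIs in 8 libraries.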
